A study of Mus musculus with 11 samples.

Results

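The subject is the mouse genes of the enzymes that hydroxylate and cross-link collagen: the lysyl oxidases Lox, Loxl1, Loxl2 and Loxl3, the prolyl 4-hydroxylase alpha subunits P4ha1, P4ha2 and P4ha3, and the lysyl hydroxylases Plod1, Plod2 and Plod3. They were taken by symbol and are 10 of the 46517 genes in the count table, and all 10 were among the 14619 genes tested. Bulk RNA of the ventricular myocardium was sequenced from mice aged 10 to 12 weeks after transverse aortic constriction (TAC), a narrowing of the aorta that loads the left ventricle with pressure, or after sham surgery. Knockout mice (KO) were Lmnb2 Flox/Flox with Tnnt2-Cre, in which the recombinase is driven by a promoter active in cardiomyocytes, so that fibroblasts and other cells kept the intact lamin B2 gene. Controls (WT) carried Tnnt2-Cre too. There were 3 KO TAC, 3 WT TAC, 3 KO sham and 2 WT sham libraries. One of the WT sham libraries had the genotype label WT where the other controls had Lmnb2 WT. The sources used here do not give the time between surgery and sampling.

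Fibrillar collagen chains are modified in the endoplasmic reticulum before they fold. Prolyl 4-hydroxylase, made of a P4HA alpha subunit and the P4HB beta subunit, hydroxylates prolines, which keeps the triple helix stable at body temperature. Lysyl hydroxylases act on lysines of the helix and of the telopeptides at its ends. Outside the cell, lysyl oxidases, which need copper, oxidize lysines and hydroxylysines to aldehydes that form the cross-links of collagen and elastin fibres. The hydroxylases need oxygen, iron, 2-oxoglutarate and ascorbate, and several of these genes are known targets of hypoxia inducible factor. In the heart, fibroblasts are the main source of fibrillar collagen.

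Libraries held 1.48e+07 to 1.73e+07 counts each, and 3 counts equalled 0.143 to 0.278 CPM (counts scaled to a common library size) in a single library. The scaling used edgeR's TMM factors. The edgeR p-values set each change against the spread between libraries of a group, estimated over all groups together. In the comparison over both genotypes that spread also holds any difference of the TAC change between KO and WT. Lmnb2, the targeted gene, was at 9.72, 3.24 and 4.46 CPM in KO TAC, and WT TAC had 2.16, 2.86 and 6.70 CPM (KO over WT log2 0.57 ± 0.55 SE, edgeR adjusted p = 0.792). It measured 0.649, 1.81 and 2.43 CPM in KO sham and 4.44 and 3.86 CPM in WT sham (log2 -1.33 ± 0.64 SE, edgeR adjusted p = 1). The libraries labelled KO were therefore lower than those labelled WT without overlap after sham surgery and overlapped them after TAC, so every comparison of genotypes after TAC rests on labels that Lmnb2 levels did not separate. The counts cover all exons, and which exons were floxed is not stated in the labels used here. KO TAC 1 and WT TAC 3 stood apart from the other TAC libraries. Their mitochondrially encoded transcripts took 35.9% and 30.6% of counts (13.2% to 25.9% in the other 4), and their summed macrophage markers were 441 and 397 CPM (1085 to 2359 CPM in the other 4). Most of that gap lay in Lyz2 (191 and 196 CPM, against 772 to 1847 CPM), while Csf1r in KO TAC 1 was the second highest of the 6 at 40.9 CPM. Ribosomal protein transcripts took 0.853% and 1.30% of their counts (3.14% to 6.66% in the other 4), and their endothelial markers summed to 924 and 579 CPM (241 to 412 CPM in the other 4). Mitochondrial shares in sham libraries were 32.8% to 49.4%. The cardiomyocyte markers (Myh6, Tnnt2, Tnni3, Actn2, Ryr2 and Pln) summed to 18580 to 22190 CPM after TAC and 32220 to 36970 CPM after sham. Tnni3, Ryr2 and Pln were called lower over both genotypes (background 8.96% of tested genes), and the other 3 were not called. Of those 3, Myh6 had a log2 value of -1.07 ± 0.41 (edgeR adjusted p = 0.0889). Myh6 measured 8864 CPM in KO TAC 1 and 5963 CPM in WT TAC 3, against 1761 to 3202 CPM in the other 4. Its sham range was 6654 to 11550 CPM. The numbers in the sample titles of TAC and sham libraries fell in separate ranges, so surgery and any batch that follows these numbers cannot be told apart. The titles of the sham libraries also begin with TAC, and surgery was taken from the treatment label.

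All 4 lysyl oxidase genes and P4ha3 rose after TAC in both genotypes. The other prolyl 4-hydroxylase subunits and the lysyl hydroxylases did not pass the test in either. Over both genotypes the changes on the log2 scale were 5.46 ± 0.57 for Lox, 3.19 ± 0.29 for Loxl3, 2.45 ± 0.26 for Loxl2 and 1.95 ± 0.25 for Loxl1 (SE, 6 TAC and 5 sham libraries). In this comparison 5 of the 10 genes were called higher at an edgeR adjusted p under 0.05 and 0 lower, against a background of 10.6% of all tested genes called higher and 8.96% called lower. The median change of the 10 genes was 1.30, against 0.05 for all tested genes, and it stays the same with P4ha3 at the lower end of its counting interval. P4ha3 could pass the filter on low counts only through the TAC libraries, so its call is not independent of that filter. Of the other 9 genes 4 were called. The 6 TAC libraries lay wholly above the 5 sham libraries for the same 5 genes and wholly below for 0, against 6.58% and 7.01% of all tested genes.

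**Figure D1:**
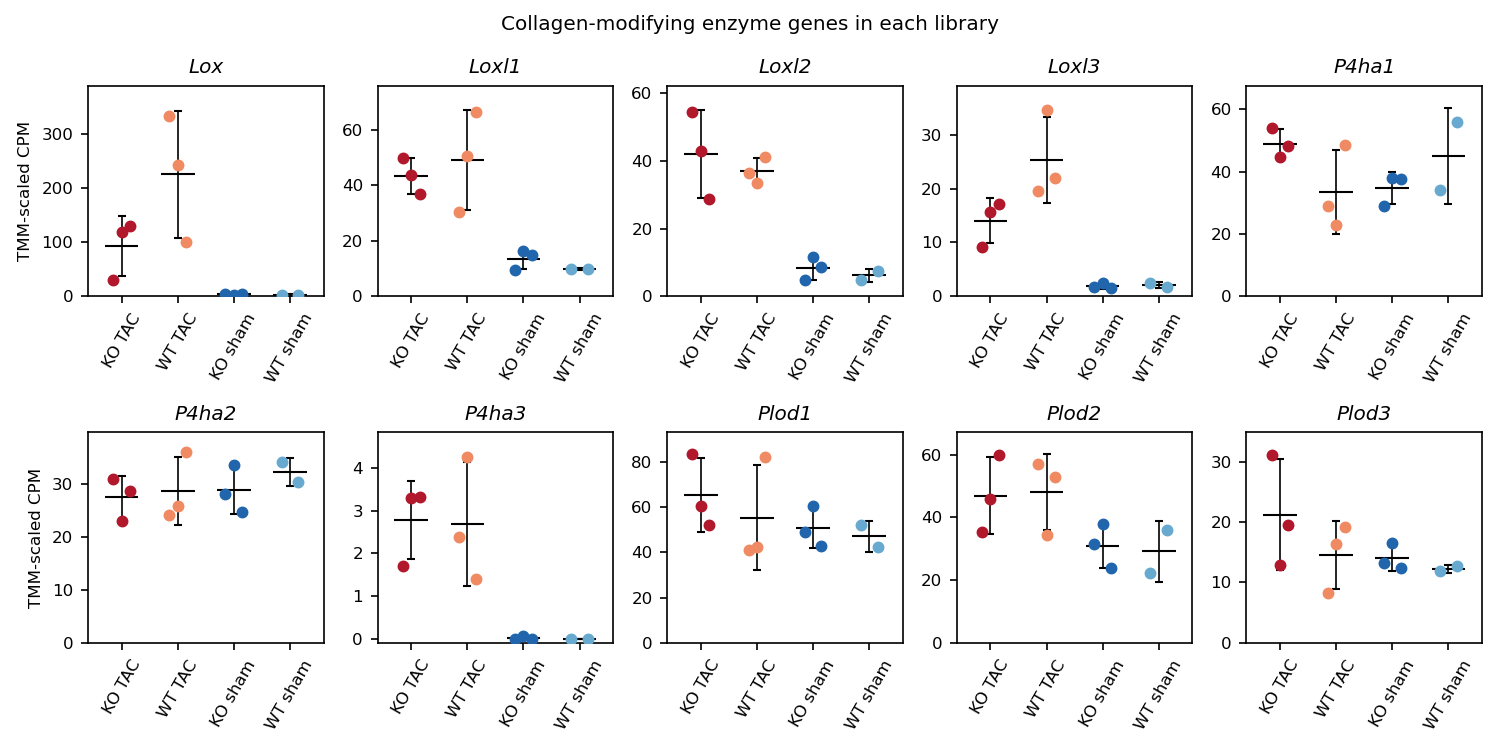
TMM-scaled CPM of each enzyme gene in each library, with points for the 3 KO TAC, 3 WT TAC, 3 KO sham and 2 WT sham libraries, a horizontal line at the group mean and bars of 1 SD. Each panel has its own linear axis. For Lox, Loxl1, Loxl2, Loxl3 and P4ha3 all TAC points lie above all sham points, and for P4ha2 the ranges of 22.9 to 36.1 CPM after TAC and 24.7 to 34.1 CPM after sham overlap.

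Lox, which encodes the founding lysyl oxidase and lies on chromosome 18 (52516067 to 52529867, minus strand, GRCm38), measured 30.3, 119.8 and 131 CPM in KO TAC and 334, 243 and 100.4 CPM in WT TAC. The sham libraries had 3.52, 2.84 and 4.45 CPM in KO and 1.63 and 3.31 CPM in WT. Every TAC library lay above every sham library, with KO TAC 1 the lowest and WT TAC 1 the highest of the TAC libraries. The log2 change was 4.70 ± 0.62 in KO (edgeR adjusted p = 0.00217) and 6.52 ± 0.81 in WT (edgeR adjusted p = 0.00211).

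Loxl3 (chromosome 6, 83034173 to 83052562, plus strand) encodes a lysyl oxidase with scavenger receptor domains whose loss in mice gives cleft palate and spinal defects. Its levels were 9.25, 15.6 and 17.2 CPM in KO TAC, 19.5, 34.5 and 21.9 CPM in WT TAC, 1.67, 2.47 and 1.60 CPM in KO sham, and 2.44 and 1.65 CPM in WT sham. The TAC and sham ranges did not overlap, and the KO TAC range lay wholly below the WT TAC range. Loxl3 ranked 19th of 14619 genes by p-value in TAC against sham over both genotypes (edgeR adjusted p = 4.06e-05), the best rank of the 10 genes. Its log2 change was 2.86 ± 0.36 in KO (edgeR adjusted p = 0.00177) and 3.62 ± 0.44 in WT (edgeR adjusted p = 0.00211).

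Loxl2 (chromosome 14, 69609068 to 69695834, plus strand), whose product cross-links type IV collagen among others, measured 54.5, 42.9 and 28.7 CPM in KO TAC and 36.4, 33.4 and 41.1 CPM in WT TAC. In sham libraries it measured 4.73, 11.5 and 8.61 CPM in KO and 4.75 and 7.56 CPM in WT. The lowest TAC library stood above the highest sham library. The log2 changes were close in size, 2.34 ± 0.35 in KO (edgeR adjusted p = 0.00408) and 2.59 ± 0.42 in WT (edgeR adjusted p = 0.00614).

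Loxl1 (chromosome 9, 58287738 to 58313186, minus strand), which mice need to maintain elastic fibres, had the highest sham level of the 4 per length and the smallest log2 change. It measured 49.8, 43.7 and 36.7 CPM in KO TAC, 30.3, 50.7 and 66.4 CPM in WT TAC, 9.54, 16.4 and 14.9 CPM in KO sham, and 9.69 and 10.00 CPM in WT sham. All TAC libraries were above all sham libraries. The log2 change was 1.67 ± 0.31 in KO (edgeR adjusted p = 0.0111) and 2.32 ± 0.38 in WT (edgeR adjusted p = 0.00613).

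P4ha3 (chromosome 7, 100285520 to 100319699, plus strand), the third alpha subunit of prolyl 4-hydroxylase, had 36, 57 and 58 counts in KO TAC and 40, 73 and 27 counts in WT TAC. The sham libraries had 0, 1 and 0 counts in KO and 0 and 0 counts in WT. On the CPM scale it reached 1.40 to 4.27 after TAC, with overlap between KO and WT. In WT it was at least 25.2-fold higher after TAC than after sham, with 140 TAC counts set against a group floor of 3 counts, and this bound was 11.2 without WT sham 1, 14.04 without WT sham 2 and at most 31.9, without WT TAC 3. In KO the ratio of TAC to sham was 113 (95% interval 19.99 to 4495, from 151 counts against 1 count), an interval that covers counting error only. Without KO sham 2, which held that count, KO TAC was at least 22.7-fold higher than KO sham against the floor of 3 counts. The test across all genes called it higher in KO (edgeR adjusted p = 0.00402) and in WT (edgeR adjusted p = 0.00687); its fitted log2 change depends on the prior count and is not read as a size.

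P4ha1 (chromosome 10, 59323296 to 59373304, plus strand), the main alpha subunit, without which mouse embryos die, measured 53.9, 44.7 and 48.2 CPM in KO TAC and 29.1, 22.8 and 48.7 CPM in WT TAC. It measured 29.0, 38.0 and 37.7 CPM in KO sham and 34.1 and 56.0 CPM in WT sham. The KO TAC libraries lay above the KO sham libraries, while the WT ranges overlapped. The log2 change was 0.49 ± 0.30 in KO (edgeR adjusted p = 0.432) and -0.43 ± 0.34 in WT (edgeR adjusted p = 0.453), so neither passed the test. Over both genotypes it was 0.07 with a 95% interval of -0.46 to 0.61, and the value was -0.14 without KO TAC 1 and WT TAC 3.

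P4ha2 (chromosome 11, 54100095 to 54131665, plus strand), the alpha subunit that mice can lack and stay viable, had the narrowest range of the 10 genes relative to its level. It ranged from 22.9 to 36.1 CPM over the 6 TAC libraries (median 27.2) and from 24.7 to 34.1 CPM over the 5 sham libraries (median 30.3). The log2 change over both genotypes was -0.11 (95% interval -0.48 to 0.26, edgeR adjusted p = 0.691). Its sign was not stable, since scaling by library totals gave 0.30, below the median of all tested genes under that scaling (0.45).

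The sequences upstream of P4ha3 and P4ha1 are shown because these subunits of the same enzyme differed in their response. They are from the RefSeq promoter table (GRCm38.p6), which held 5 of the 10 genes, and were ended before the RefSeq gene start, which lies upstream of the annotated GENCODE start given above for both genes. The bases between the starts were therefore not searched. Capitals mark the GC box GGGCGG, searched on both strands.
P4ha3 chr7:100285270-100285488 plus strand: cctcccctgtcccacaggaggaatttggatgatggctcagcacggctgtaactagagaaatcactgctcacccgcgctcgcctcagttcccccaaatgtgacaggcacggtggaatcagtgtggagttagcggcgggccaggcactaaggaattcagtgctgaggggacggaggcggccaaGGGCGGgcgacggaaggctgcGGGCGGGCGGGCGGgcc
P4ha1 chr10:59323046-59323196 plus strand: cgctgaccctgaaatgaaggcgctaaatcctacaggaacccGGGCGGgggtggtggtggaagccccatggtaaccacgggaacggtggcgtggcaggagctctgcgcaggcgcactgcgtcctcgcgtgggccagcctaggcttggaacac
The P4ha3 stretch of 219 bases held 4 GC boxes, 3 of them overlapping in one run next to its 3′ end, and the P4ha1 stretch of 151 bases held 1. Of all 32851 promoters in the table, 28.3% held a GC box in a stretch of the length used for P4ha3 and 16.8% in a stretch of the length used for P4ha1. Neither stretch held the ACGTG form of the hypoxia response core (14.4% and 9.28% of promoters at the P4ha3 and P4ha1 lengths). The AP-1 site TGANTCA (6.08% and 4.03%), the SMAD box CAGAC (38.4% and 28.8%) and the TATA box TATAAA (9.92% and 7.34%) were absent from both as well. The GCGTG form of the hypoxia response core was not searched for, and the P4ha1 stretch printed above holds it.

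The 3 lysyl hydroxylase genes had no call. Plod1 (chromosome 4, 147909753 to 147936767, minus strand), whose product hydroxylates lysines of the helix and is mutated in kyphoscoliotic Ehlers-Danlos syndrome in humans, measured 83.5, 60.4 and 51.9 CPM in KO TAC and 41.2, 42.4 and 82.0 CPM in WT TAC. It measured 48.9, 60.4 and 43.0 CPM in KO sham and 52.0 and 42.3 CPM in WT sham. The 2 highest libraries were KO TAC 1 and WT TAC 3, and the other TAC libraries lay within or near the sham range. The log2 change over both genotypes was 0.30 (95% interval -0.18 to 0.78, edgeR adjusted p = 0.367) and was -0.02 without these 2 libraries.

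Plod2 (chromosome 9, 92542223 to 92608428, plus strand) encodes the hydroxylase of telopeptide lysines, which directs the type of cross-link formed. It measured 35.3, 45.9 and 59.9 CPM in KO TAC and 57.0, 34.5 and 52.9 CPM in WT TAC. In sham libraries it measured 31.4, 37.8 and 23.8 CPM in KO and 22.3 and 36.1 CPM in WT. KO TAC 1 and WT TAC 2 fell within the sham range, and the other 4 TAC libraries lay above it. The log2 change over both genotypes was 0.65 (95% interval 0.18 to 1.13) with an edgeR adjusted p of 0.0535, just outside the threshold. It was called under 5 of 19 alternative settings, which were library totals, DESeq2 (adjusted p = 0.0329), and the fits that left out WT TAC 2, KO TAC 1, or both KO TAC 1 and WT TAC 3 (edgeR adjusted p = 0.0257 for the pair).

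Plod3 (chromosome 5, 136987019 to 136996648, plus strand), whose product also adds sugars to hydroxylysine, measured 31.1, 12.9 and 19.6 CPM in KO TAC and 8.28, 16.3 and 19.1 CPM in WT TAC. In sham libraries it measured 13.2, 16.5 and 12.4 CPM in KO and 11.8 and 12.7 CPM in WT. The TAC libraries ranged from below to above the sham range. The log2 change over both genotypes was 0.44 (95% interval -0.12 to 1.01, edgeR adjusted p = 0.258).

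**Figure D2:**
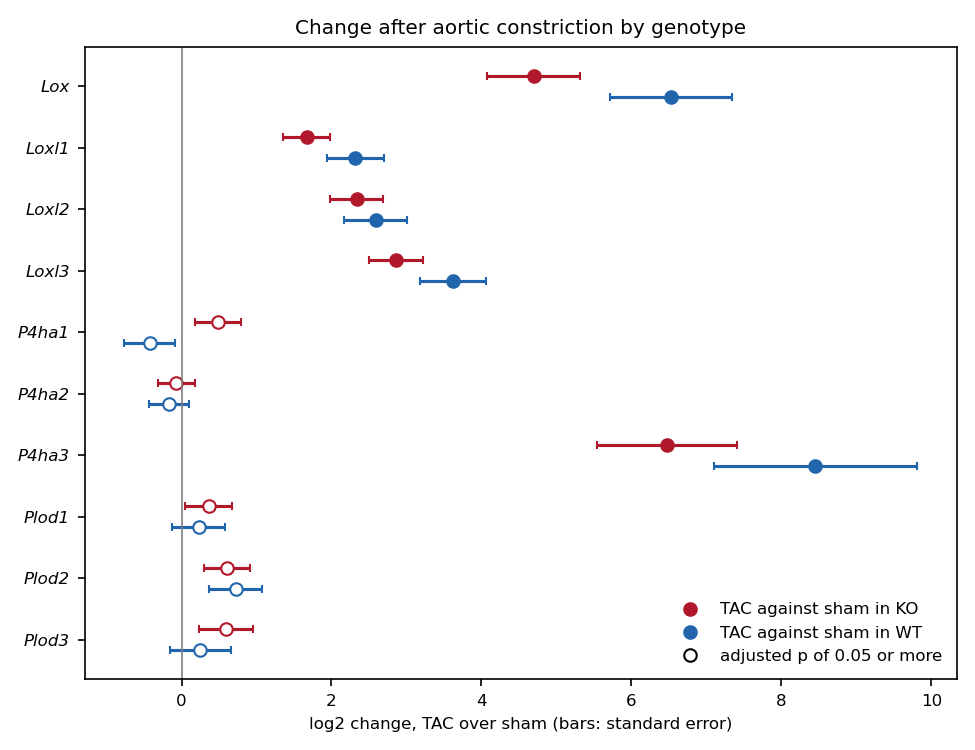
Log2 change of TAC over sham for each gene in KO and in WT, with bars of 1 approximate standard error and filled points where the edgeR adjusted p was under 0.05. Lox, Loxl1, Loxl2, Loxl3 and P4ha3 are filled in both genotypes, and the fitted P4ha3 values rest on 1 and 0 sham counts and depend on the prior count.

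In KO, 5 of the 10 genes were called higher and 0 lower (background 3.32% of tested genes higher, 1.37% lower), with a median log2 change of 1.14 against 0.03 for all tested genes. In WT the same 5 genes were called higher and 0 lower (background 3.88% higher, 3.04% lower), with a median of 1.52 against 0.05. The TAC libraries lay wholly above the sham libraries for 6 genes in KO (background 13%), P4ha1 being the sixth, and for 5 genes in WT (background 19.1%). In KO the call of Loxl1 was lost without KO sham 1. The WT calls depended on the pair of sham libraries. Without WT sham 1, Loxl3 alone was called, and without WT sham 2, Lox and Loxl3 were called. Sample titles end in M or F, with 1 F library in each of KO TAC, WT TAC and KO sham and 0 in WT sham. The letters were thus not balanced between WT TAC and WT sham, or between KO sham and WT sham. With the 3 F libraries left out 4 of the genes were called in each genotype, P4ha3 being lost (edgeR adjusted p = 0.0741 in KO and 0.0525 in WT). Scaling by library totals moved the median of all tested genes over both genotypes to 0.45 on the log2 scale and the calls over all genes to 3577 higher and 385 lower, against 1545 and 1310 with TMM. With that scaling 7 of the 10 genes were called, the 5 above plus Plod2 (log2 1.07) and Plod3 (log2 0.86).

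Per length of exonic sequence, the order of the genes differed between the surgeries. Levels are given as FPKM, the TMM-scaled CPM per kilobase of union exon. After TAC, Lox led with 33.4 ± 22.9 FPKM, followed by Loxl1 (14.04 ± 3.81), P4ha1 (10.02 ± 3.01), Plod1 (8.91 ± 2.78), Plod2 (8.82 ± 2.02), Loxl2 (7.31 ± 1.66), P4ha2 (4.50 ± 0.785), Loxl3 (4.27 ± 1.83), Plod3 (3.96 ± 1.71) and P4ha3 (0.871 ± 0.348) FPKM (SD, n = 6). Lox was above Loxl1 in 5 of these 6 libraries, and P4ha1, Plod1 and Plod2 did not differ beyond their spread. Loxl2 was above P4ha2, and Plod3 above P4ha3, in all 6.

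After sham, P4ha1 led with 9.47 ± 2.47 FPKM, followed by Plod1 (7.29 ± 1.10), Plod2 (5.61 ± 1.31), P4ha2 (4.83 ± 0.632), Loxl1 (3.67 ± 0.995), Plod3 (2.95 ± 0.406), Loxl2 (1.37 ± 0.525), Lox (0.659 ± 0.216), Loxl3 (0.427 ± 0.0974) and P4ha3 (0.00385 ± 0.00861) FPKM (SD, n = 5). Neighbours from P4ha1 down to Plod3 each exchanged places in 1 of 5 libraries, as did Lox and Loxl3. Plod3 was above Loxl2, Loxl2 above Lox, and Loxl3 above P4ha3 in all 5. Lox stood first after TAC and eighth after sham.

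The make-up of the lysyl oxidase family changed with surgery. Lox took 18.9%, 50.5% and 57.6% of the summed FPKM of the 4 genes in KO TAC and 77.6%, 63.6% and 39.3% in WT TAC, against 7.21% to 15.1% in the sham libraries. Loxl1 took 27.1% ± 12.6 after TAC and 59.8% ± 2.77 after sham (SD, n = 6 and 5). Loxl3 kept a similar share, 7.28% ± 1.77 after TAC and 7.31% ± 2.45 after sham. Within the prolyl 4-hydroxylase subunits, P4ha1 took 64.0% ± 7.65 after TAC and 65.6% ± 5.90 after sham, and P4ha3 took 2.48% to 12.3% after TAC and 0% to 0.131% after sham. Within the lysyl hydroxylases the share of Plod2 was 41.6% ± 10.7 after TAC and 35.2% ± 5.15 after sham, with overlapping libraries.

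**Figure D3:**
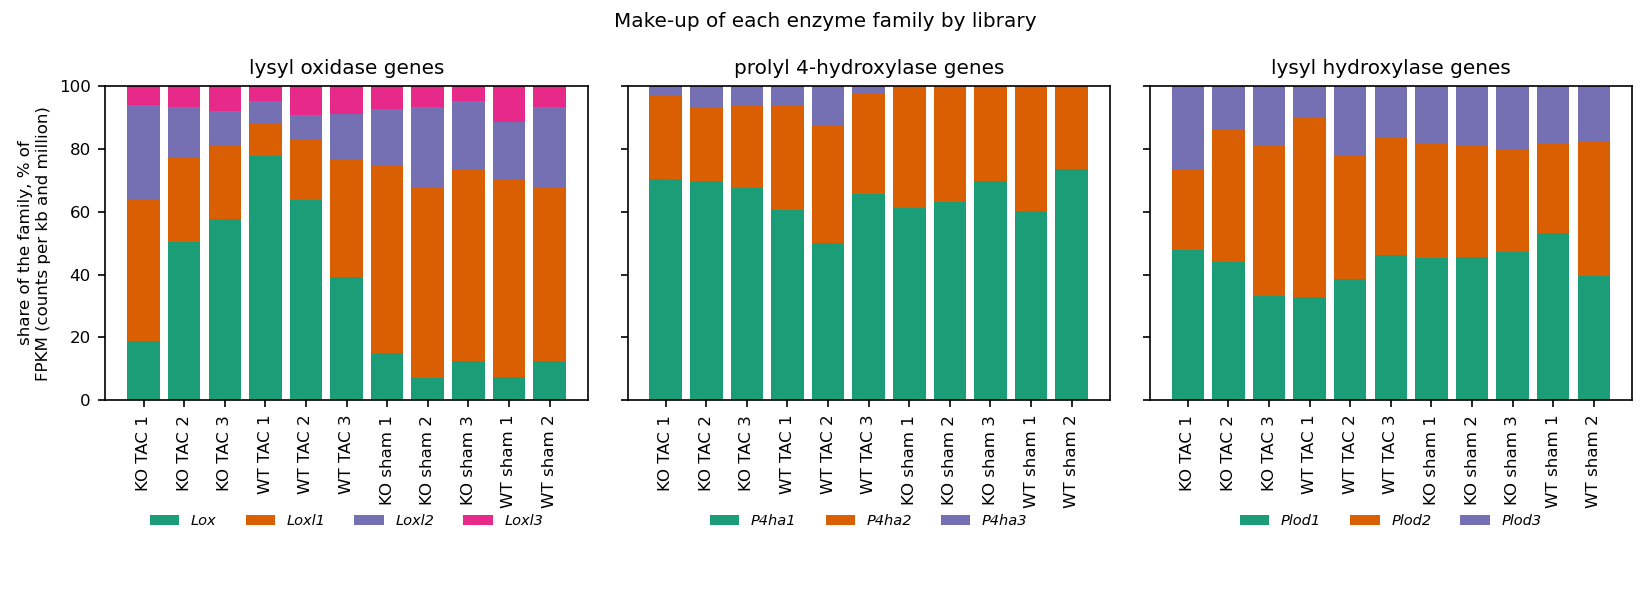
Share of each gene in the summed FPKM (TMM-scaled CPM per kilobase of exon) of its family, in percent, with 1 stacked bar per library. Lox takes 18.9% to 77.6% of the lysyl oxidase bar after TAC and at most 15.1% after sham, while P4ha1 and P4ha2 fill nearly all of the prolyl 4-hydroxylase bar in every library.

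The substrate transcripts rose with TAC as well, so each family was set against the summed FPKM of Col1a1, Col1a2 and Col3a1, the chains of type I and type III collagen. That sum was 157 to 210.2 FPKM in KO TAC and 219.6 to 417 FPKM in WT TAC, against 13.7 to 23.4 FPKM in KO sham and 10.6 to 14.5 FPKM in WT sham. Per 100 FPKM of collagen, the lysyl oxidase genes summed to 20.03 to 30.4 FPKM in KO TAC and 21.6 to 35.3 FPKM in WT TAC, against 35.2 to 40.9 FPKM in KO sham and 37.9 to 44.1 FPKM in WT sham. WT TAC 2 alone reached the lowest sham library, and the other 5 TAC libraries lay below all sham libraries. The prolyl 4-hydroxylase subunits summed to 7.42 to 11.1 FPKM per 100 of collagen in KO TAC and 2.81 to 8.23 in WT TAC, against 62.8 to 84.1 in KO sham and 128 to 129 in WT sham. The lysyl hydroxylases summed to 9.66 to 15.4 FPKM per 100 of collagen in KO TAC and 4.44 to 11.9 in WT TAC, against 74.9 to 116 in KO sham and 109 to 136 in WT sham. Both hydroxylase families were thus lower per collagen transcript in every TAC library than in any sham library, while the TAC and sham ranges of their own sums overlapped. The prolyl 4-hydroxylase subunits summed to 11.05 to 18.6 FPKM after TAC and 11.6 to 18.5 FPKM after sham, and the lysyl hydroxylases averaged 21.7 ± 4.00 FPKM after TAC and 15.9 ± 2.31 FPKM after sham (SD, n = 6 and 5). These ratios are of transcripts, in bulk tissue in which cell types other than collagen producers also express hydroxylases. In bulk RNA, fewer cells of a type and less RNA per cell cannot be told apart.

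**Figure D4:**
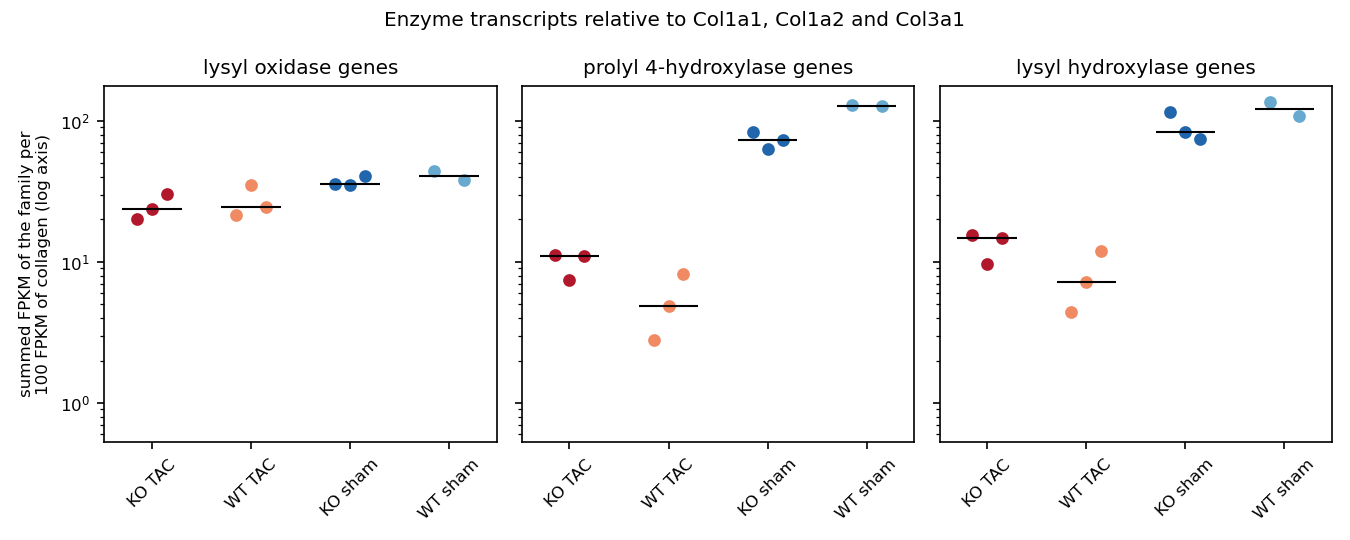
Summed FPKM of each enzyme family per 100 FPKM of Col1a1, Col1a2 and Col3a1 on a log axis, with 1 point per library and a line at the group median, for KO TAC, WT TAC, KO sham and WT sham. The lysyl oxidase points span 20.03 to 44.1 over all groups, while both hydroxylase families lie between 2.81 and 15.4 after TAC and between 62.8 and 136 after sham.

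No enzyme gene was called between the libraries labelled KO and those labelled WT. After TAC, 0 of the 14619 genes were called by edgeR (0% higher and 0% lower), and 930 had an unadjusted p under 0.05. Where no gene differs, a share of 0.05 of tests is still expected under that limit. Such unadjusted counts, here and below, are not calls. DESeq2 called 12 genes after TAC, none of the 10 among them. Lox averaged 93.6 ± 55.1 CPM in KO TAC and 226 ± 118 CPM in WT TAC (SD, n = 3 each), a log2 difference of -1.27 (95% interval -2.42 to -0.12, edgeR adjusted p = 0.747), with KO TAC 2 and 3 above WT TAC 3. Without the filter on low counts Lox was called lower (edgeR adjusted p = 0.0283). Loxl3 averaged 14.02 ± 4.21 CPM in KO TAC and 25.3 ± 8.03 CPM in WT TAC, a log2 difference of -0.85 (95% interval -1.56 to -0.14, edgeR adjusted p = 0.747). It was the 1 gene of the 10 whose KO TAC libraries lay wholly below the WT TAC libraries, against 3.34% of all tested genes, and for 0 of the 10 did they lie wholly above, against 4.41%. P4ha1 lay in the other direction, with 48.9 ± 4.66 CPM in KO TAC and 33.5 ± 13.5 CPM in WT TAC (log2 0.55, 95% interval -0.12 to 1.21, edgeR adjusted p = 0.747). The other 7 genes had log2 differences between -0.18 and 0.54.

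The test of whether the TAC change differed between KO and WT called 0 genes with edgeR (434 with an unadjusted p under 0.05) and 2 with DESeq2, and none of the 10 in either. The difference for Lox was -1.82 on the log2 scale (95% interval -3.65 to 0.0045, edgeR adjusted p = 0.992), and that for P4ha1 was 0.91 (95% interval -0.07 to 1.90, edgeR adjusted p = 0.992). These intervals are wide, so the data do not show that the genotypes responded alike. After sham, 0 genes were called by edgeR (185 with an unadjusted p under 0.05) and 2 by DESeq2, none of them among the 10, and for 0 of the 10 did the KO and WT libraries lie apart, against 6.8% of all tested genes higher and 8.47% lower.

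Cell type markers moved with surgery beside these genes. Over both genotypes the background was 10.6% of tested genes higher and 8.96% lower. All 6 markers of activated fibroblasts (Postn, Cthrc1, Fap, Cilp, Comp and Meox1) were called higher over both genotypes. In KO alone 5 were called higher (background 3.32%), and in WT alone 6 (background 3.88%). Their summed level was 787 to 1703 CPM in KO TAC and 1461 to 3166 CPM in WT TAC, against 27.5 to 46.6 CPM in the sham libraries. Cthrc1 was at 0 in all 5 sham libraries, so it passed the filter on low counts only through the TAC libraries, and its call is not independent of that filter. KO TAC 1 had both the lowest sum of these markers and the lowest Lox of the TAC libraries, and WT TAC 1 had the highest of both. Postn made up most of that sum, with 691 CPM in KO TAC 1 and 2879 CPM in WT TAC 1. Among the TAC libraries Loxl3 was also lowest in KO TAC 1 (9.25 CPM). The other lysyl oxidases differed, with Loxl2 highest in KO TAC 1 (54.5 CPM) and Loxl1 lowest in WT TAC 1 (30.3 CPM). The 10 markers of fibroblasts in general summed to 682 to 967 CPM in KO TAC and at least 863 CPM in WT TAC. After sham they summed to 761 to 1214 CPM. Of the 10, 2 were called higher (Mfap4, Mfap5) and 2 lower (Gsn, Scara5). Gsn made up most of the sum in every sham library, at 542 to 968 CPM, and measured 143 to 360 CPM after TAC. The sum of the fibroblast list therefore does not show whether its other markers moved. All 7 macrophage markers were called higher over both genotypes (397 to 2359 CPM after TAC, 205 to 418 CPM after sham). In KO alone 1 was called higher (background 3.32%), and in WT alone 2 (background 3.88%). Lyz2 was the largest part of the sum in every library, and its TAC and sham ranges overlapped. The 7 smooth muscle and pericyte markers summed to 676 to 1105 CPM after TAC and 886 to 1305 CPM after sham (Cnn1 higher, Abcc9 lower), and the 6 endothelial markers to 241 to 924 CPM and 351 to 513 CPM, with none called. The cartilage list summed to 6.14 to 23.0 CPM after TAC and 0.625 to 2.43 CPM after sham, mostly from Sox9 and from Comp, which is also in the activated fibroblast list. Its defining marker Col2a1 had at most 2 counts in any TAC library and 0 in every sham library. Fat cell markers summed to 35.7 CPM in WT TAC 3, to at most 4.35 CPM in the other TAC libraries and to at most 3.40 CPM after sham. The 5 epicardial markers summed to 11.6 to 31.6 CPM after TAC and 4.94 to 9.91 CPM after sham. Of these, Aldh1a2 alone was called higher (log2 2.12 ± 0.31). Wt1 (log2 0.25), Upk3b (-0.16) and Msln (-0.04) were not called, and Krt19 was not tested. The part of these cell types in the enzyme changes was not tested.

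The rest of the pathway was described from lists chosen with earlier results of these data known. Of 24 tested substrate genes (of 26 collagens and elastin listed), 22 were called higher over both genotypes and 0 lower (background 10.6% higher, 8.96% lower), with a median log2 change of 2.33. Col1a1 and Col1a2 of type I collagen changed by 3.44 ± 0.40 and 3.51 ± 0.26, and Col3a1 of type III by 3.95 ± 0.40. Col5a2, a chain of the type V collagen that nucleates fibrils, changed by 3.73 ± 0.29, and Eln, the elastin gene, by 3.11 ± 0.41. Col11a1 measured 0.715 to 38.8 CPM after TAC, with KO TAC 1 the lowest, and at most 0.315 CPM after sham. Col12a1, a collagen associated with fibrils, measured 8.96 to 36.3 CPM after TAC and at most 0.625 CPM after sham. Col8a1 and Col8a2, the chains of the short-chain type VIII collagen, changed by 3.53 ± 0.27 and 4.92 ± 0.48, and Col16a1 by 2.73 ± 0.31. In any sham library Col8a2 had at most 6 counts, Col11a1 at most 5 and Col12a1 at most 9. These genes could pass the filter on low counts only through the TAC libraries. Their calls, which are among the 22, are therefore not independent of that filter. In KO alone 16 of the 24 were called higher (background 3.32%) and in WT alone 17 (background 3.88%).

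Of 17 tested genes for procollagen processing and fibril assembly (of 18 listed), 11 were called higher over both genotypes and 0 lower (background 10.6% higher, 8.96% lower), with a median of 1.43. Adamts2, which cuts the amino propeptide from procollagen, changed by 2.43 ± 0.23. Bmp1, which cuts the carboxyl propeptide and also processes the lysyl oxidase proenzyme, changed by 1.25 ± 0.18, and its enhancer Pcolce by 1.59 ± 0.18. Sparc, a collagen-binding matrix protein, changed by 2.23 ± 0.26 and Bgn, the proteoglycan biglycan, by 2.43 ± 0.29. Loxl4, the remaining gene of the lysyl oxidase family, measured 0.458 to 4.17 CPM after TAC and 0.0787 to 0.965 CPM after sham. Its sham counts were 1, 16 and 3 in KO and 5 and 1 in WT. It therefore needed the TAC libraries to pass the filter on low counts, and its call is not independent of that filter. It was called higher over both genotypes (log2 2.35 ± 0.72, edgeR adjusted p = 0.0362), but KO TAC 3 lay below KO sham 2 and the call was lost under 7 of 19 alternative settings. In KO alone 8 of the 17 were called higher (background 3.32%) and in WT alone 11 (background 3.88%). Fmod, also on this list, averaged 12.3 CPM in KO TAC and 17.5 CPM in WT TAC. Its means were 0.670 CPM in KO sham and 0.0313 CPM in WT sham. Fmod too could pass the filter on low counts only through the TAC libraries. Any call of Fmod in these counts is therefore not independent of that filter.

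Of 22 genes for partner subunits, chaperones and folding, 9 were called higher over both genotypes and 1 lower (background 10.6% higher, 8.96% lower), with a median of 0.62. The count of higher calls ran from 4 to 15 over the alternative settings. The prolyl 3-hydroxylase genes P3h1, P3h2 and P3h3 were among the 9, with log2 changes of 0.68 ± 0.18 for P3h1, 1.42 ± 0.32 for P3h2 and 1.43 ± 0.25 for P3h3. P3h4, a related gene of the list, was not called and had a negative log2 value of -0.68 ± 0.25 (edgeR adjusted p = 0.0697). Kdelr3, a receptor that returns proteins to the endoplasmic reticulum, changed by 2.08 ± 0.38, and Fkbp14, a prolyl isomerase, by 0.71 ± 0.18.

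P4hb, which encodes the beta subunit shared by the 3 prolyl 4-hydroxylases and is also a protein disulfide isomerase, measured 236, 443 and 499 CPM in KO TAC and 867, 1143 and 351 CPM in WT TAC. In sham libraries it measured 347, 214 and 177 CPM in KO and 239 and 189 CPM in WT. KO TAC 1 lay within the sham range and WT TAC 3 just above it. Its log2 change of 1.19 ± 0.37 over both genotypes (edgeR adjusted p = 0.0384) lost its call under 10 of 19 alternative settings. Serpinh1, the collagen chaperone HSP47, changed by 0.62 ± 0.18 (edgeR adjusted p = 0.0295, lost under 8 of 19). Fkbp10, which helps PLOD2 act on telopeptides, had a log2 value of 0.43 ± 0.26 and was not called (edgeR adjusted p = 0.270). The 1 gene called lower was Hspa5, the chaperone BiP (log2 -0.64 ± 0.19), named after its value was seen. In WT alone 3 were called higher (P4hb, P3h3 and Kdelr3; background 3.88%), and in KO alone 0 by edgeR (background 3.32%), where P3h2, P3h3 and Kdelr3 had edgeR adjusted p-values of 0.0503, 0.0574 and 0.0598. No difference of the TAC change between KO and WT was called for any gene of the list.

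Of 20 hypoxia response genes, 2 were called higher and 2 lower over both genotypes, with a median of 0.12 against 0.05 for all tested genes. These counts are 10% of the list in each direction, near the 10.6% higher and 8.96% lower over all tested genes. Ankrd37 (log2 1.83 ± 0.46) and Car9, a carbonic anhydrase (0.364 to 1.85 CPM after TAC, at most 0.121 CPM after sham), were higher, and Car9 too could pass the filter on low counts only through the TAC libraries. Egln1, the hydroxylase that marks hypoxia inducible factor for degradation, was lower (log2 -1.16 ± 0.19), as was Hk2, a hexokinase (log2 -1.12 ± 0.33). Pgk1 of glycolysis had a log2 value of 0.89 ± 0.30 and was just outside the threshold (edgeR adjusted p = 0.0501). The counts in this list moved to 8 higher and 1 lower with library totals, and to 7 higher and 3 lower without KO TAC 1 and WT TAC 3. Egln1 was called lower in both genotypes, and Car9 higher in KO alone, a difference between genotypes that was not called.

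**Figure D5:**
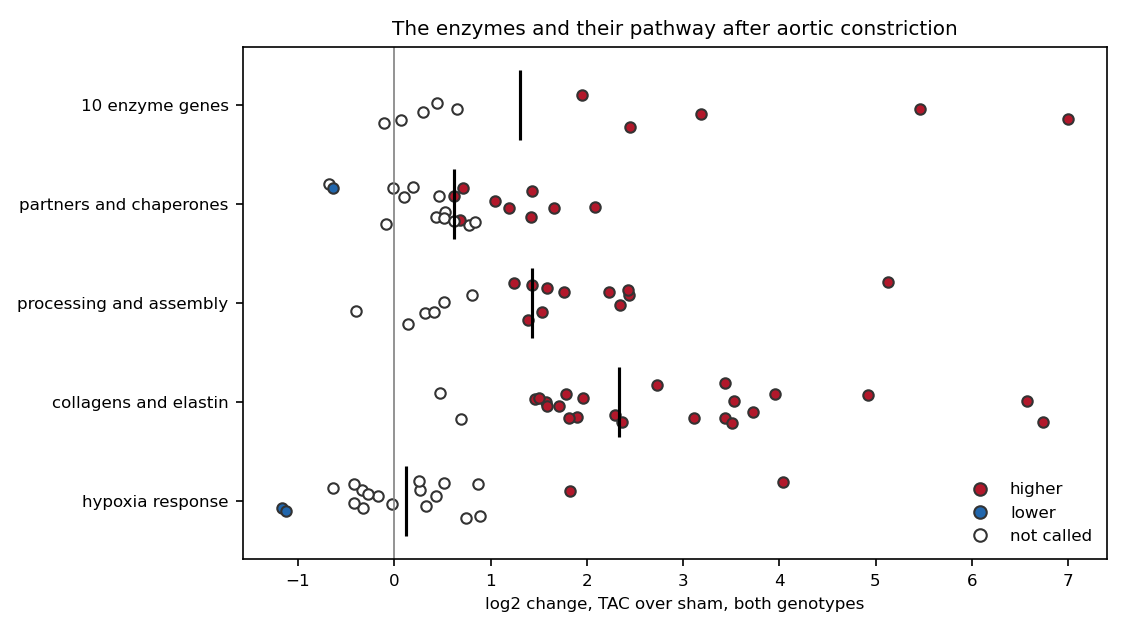
Log2 change of TAC over sham across both genotypes for the 10 enzyme genes and for the tested genes of 4 pathway lists, with filled points for genes called higher or lower and a vertical bar at each median. The medians are 1.30 for the enzymes, 0.62 for partners and chaperones, 1.43 for processing and assembly, 2.33 for collagens and elastin and 0.12 for hypoxia response. P4ha3 is the rightmost enzyme point and is a fitted value that depends on the prior count.

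Among other genes that averaged 5 CPM or more, those whose log2 CPM followed the mean of the lysyl oxidase genes most closely over the 11 libraries were Sfrp1 (Pearson r = 0.99), Col8a1 (0.99) and Postn (0.99). Sfrp1, a secreted Wnt antagonist, measured 37.4 to 81.6 CPM after TAC and 5.65 to 9.66 CPM after sham. Postn, the matrix protein periostin, measured 691 to 2879 CPM after TAC and 15.4 to 29.9 CPM after sham. For the prolyl 4-hydroxylase subunits, whose mean is moved mostly by P4ha3, they were Fn1 (0.98), Frzb (0.98) and Tmem176b (0.97). For the lysyl hydroxylases they were Rcn1 (0.94), Aoc3 (0.94) and Ift122 (0.94). Rcn1, a calcium-binding protein of the endoplasmic reticulum, measured 21.2 to 35.7 CPM after TAC and 17.3 to 25.5 CPM after sham. These r values describe libraries that share surgery, depth and composition, and carry no test.

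Some exonic bases of 5 genes overlap other annotated genes, and the sources used here do not say whether counting used strand. The overlaps were 538 bases for Plod3 (Znhit1 on the opposite strand, and Mir702), 535 for Loxl3 (Htra2 on the opposite strand), 346 for Plod2, 308 for Loxl2 and 30 for Lox. Reads from these stretches cannot be assigned to 1 gene if strand was not used. The other 5 genes had no exonic overlap.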

How the data were processed

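The authors deposited raw counts, 1 column per sample and 1 row per Ensembl gene, and 0 columns were left unused. Per the submitters' processing notes, STAR 2.5.1, featureCounts, DESeq2 and genome build GRCm38 were used, but the sources used here give neither their roles nor the annotation version, strand option or handling of multi-mapping reads. GENCODE M21 gave symbols for 46005 of 46517 identifiers, and the 512 others held 0.0198% of counts. Groups came from the genotype and treatment labels, and nothing in the labels pairs samples. In R 4.3.3, edgeR 4.0.16 (filterByExpr, TMM, glmQLFit, glmQLFTest) was fitted to all 11 libraries with 1 mean per group, or with genotype plus surgery for the comparison over both genotypes. Every test was 2-sided, with Benjamini-Hochberg adjustment over the 14619 genes of a comparison and a threshold of 0.05. Approximate standard errors were obtained by dividing a log2 change by the square root of its F statistic, and intervals are at 95%. FPKM are TMM-scaled CPM per kilobase of union exon, and log2 CPM for likeness used a prior count of 2. The 3-count floors and count intervals cover counting error only. No 2 libraries of a group agreed within sampling noise. Alternatives were library totals, DESeq2 size factors, DESeq2 1.42.0, limma 3.58.1 voom, no filter on low counts, the sex letter as a covariate, the libraries with M in the title, KO TAC 1 and WT TAC 3 left out, and each library left out. The 10 genes, the pathway and marker lists and the rule for named genes were chosen with earlier results of these data known. The rule names all 10 genes, Lmnb2, the 5 genes of each pathway list with the smallest p over both genotypes (up to 10 substrates), 8 fixed pathway genes, and the 3 genes most like each family. Marker genes and Hspa5 were named after their values were seen.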

Additional observations from a re-analysis of the deposited data

How the results depend on the processing

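No paired analysis was possible because the labels give no replicate numbers that groups share. In each of 19 alternative settings Lox, Loxl1, Loxl2, Loxl3 and P4ha3 kept their direction after TAC in KO, in WT and over both genotypes, and over both genotypes they kept their calls. Leaving out 1 library at a time, the enzyme genes called numbered 4 to 5 in KO, 1 to 5 in WT and 5 to 6 over both genotypes, and 0 between genotypes; a group left with 1 library was assumed to vary like the others. The genes called over the whole table ranged from 226 to 996 in KO, from 30 to 2663 in WT and from 1672 to 3870 over both genotypes, against 687, 1011 and 2855. Without the filter they numbered 928 higher and 403 lower in KO, 2243 in WT, 20 between KO and WT after sham, 206 after TAC (1 of them an enzyme gene, Lox) and 80 for the difference of the TAC change. With DESeq2 they numbered 1389, 2080, 2, 12 and 2. Library totals gave 1385 in KO and the sex covariate 608 in WT. Libraries with M gave 102 in KO, 204 in WT and 1526 over both genotypes. Without KO TAC 1 and WT TAC 3 they numbered 2117 in KO, 4374 in WT, 5436 over both genotypes, 2 between KO and WT after sham, 14 after TAC and 1 for the difference. The cause was not tested.

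Values that changed sign were all of genes without a call in the comparison concerned. P4ha2 took 0.40 in KO, 0.17 in WT and 0.30 over both genotypes with library totals, and 0.051 in KO and 0.012 over both with libraries with M. Without KO TAC 1 and WT TAC 3, P4ha1 took -0.14 and Plod1 -0.016 over both genotypes, and Plod1 -0.18 in WT. Leaving out 1 library at a time, P4ha2 in KO ranged from -0.20 to 0.067, P4ha1 over both genotypes from -0.039 to 0.30 and Plod1 in WT from -0.18 to 0.40. Between KO and WT after sham, Loxl3 ranged from -0.35 to 0.22 and P4ha1 from -0.68 to 0.027, and Lmnb2 after TAC ranged from -0.066 to 1.24. Depth limits P4ha3, whose sham level rests on 1 count in 5 libraries, and the 2 WT sham libraries limit every comparison in WT.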
